A study of Mus musculus with 2 samples.

Results

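Primary cilium transport and transition zone genes were described in cells sorted from cooled mouse embryonic cortex, in 1 library from cells that carried an Rbm3 knockdown plasmid and 1 from cells that carried a control plasmid. The genes were chosen by name, as the intraflagellar transport (Ift) and Bardet-Biedl (Bbs) genes, the tectonic and nephrocystin genes and a fixed set of other transition zone and ciliary membrane genes, and 41 of the 15643 genes in the deposited table matched. One further gene of this kind, Ift22, is listed in the table under its older name Rabl5 and so was not a member.

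The study asks how the cold-inducible RNA-binding protein Rbm3 acts in cortical development under maternal hypothermia. Both groups were CD-1 embryos electroporated in utero at embryonic day 13, whose mothers were made hypothermic at embryonic day 14, and whose GFP-positive cells were sorted at embryonic day 15. The control group had received a control plasmid and the other group an Rbm3 knockdown plasmid, with no uncooled group among the libraries. The sources used here do not say how many embryos or litters went into a library. In what follows, a pair of values for a gene gives the control library first and the knockdown library second.

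The primary cilium is a single antenna of microtubules that a non-dividing or interphase cell builds on its mother centriole, and radial glia, the stem cells of the cortex, extend theirs into the ventricle. Intraflagellar transport trains carry cargo along it: the IFT-B complex travels outward with kinesin, and the IFT-A complex serves the return with dynein and the entry of membrane proteins. The BBSome removes receptors from the cilium, and the transition zone at its base is a gate that decides which proteins enter. Hedgehog signalling in vertebrates depends on this organelle, and mutations in these genes cause human ciliopathies such as Joubert, Meckel and Bardet-Biedl syndromes.

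The libraries held 17757555 (control) and 16823612 (knockdown) reads over listed genes. With 1 library per group there is no replicate, so each difference is one between 2 libraries, no test was made, and every interval covers counting error only, which reads copied by PCR make too small. Rbm3 itself had 3242 and 2397 reads, 84.1% of the control level (95% interval 79.8% to 88.7%), so the knockdown library is so called on its label. Markers of cell types were compared between the libraries. All 14 radial glial markers were measured, 3 with log2 ratios (knockdown over control) above 0 and 11 below, with a median of -0.58. Sox2 was among the 3, with 137 and 150 CPM (reads scaled to a common library size). Pax6 was among the 11, with 103 and 79.6 CPM. However, 14 neuronal markers were measured too, with 9 log2 ratios above 0 and 5 below. Their summed level was 7505 and 10106 CPM, against 2964 and 1968 CPM for radial glia. In RPKM, which also divides reads by gene length, the sums were 2698 and 2608 for neurons and 1175 and 592 for radial glia. The 11 listed intermediate progenitor markers summed to 721 and 1272 CPM, and 9 of the 10 measured were above 0, beside 53.1% of all measured genes. Markers of cell types around the cortex or in its vessels, which a sort for electroporated cells would be set to leave out, differed too. The summed level of 9 listed choroid plexus markers was 660 CPM in the control but 21.5 CPM in the knockdown library. Most of it was Ttr, the gene of the thyroid hormone carrier transthyretin, with 567 and 0.432 CPM, and the other 8 summed to 93.2 and 21.1 CPM. The summed level of 12 meningeal fibroblast markers was 713 and 56.0 CPM, and that of 11 endothelial markers 381 and 144 CPM, with none of these markers at 0 reads in either library. In bulk RNA, fewer cells of a type and less RNA per cell cannot be told apart. Sex-linked RNA differed as well: Xist had 5246 and 24642 reads, and the Y-linked gene Eif2s3y had 1104 and 0. With 1 library per group, this difference cannot be told apart from that in plasmid, for any member.

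RFX transcription factors bind the X-box, a paired inverted motif known from promoters of ciliary genes, and the promoters that carried one are shown here because they are the regulatory sequence these genes are known for. The 250 bases before each start site were searched on both strands for GTTNCC and GGNAAC separated by 0 to 3 bases, in RefSeq promoters of the GRCm38.p6 build. Of 41 members 35 had a promoter in that set, and Ift122, Ift80, Ift81 and Tmem67 were among those that had none. The X-box was searched in 4 forms, and the one shown first was chosen after the counts of all 4 were seen, so its share among the members is no independent evidence. This paired motif was found in 4 of the 35 (11.4%), beside 0.788% of 27025 genes with a promoter. Of these, 3 are shown. The capitals mark the motif, and each sequence runs 5′ to 3′ on the strand of its gene.
Bbs7: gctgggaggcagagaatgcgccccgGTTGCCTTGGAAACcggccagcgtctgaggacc
Mks1: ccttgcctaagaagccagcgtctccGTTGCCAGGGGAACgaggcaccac
Tctn3: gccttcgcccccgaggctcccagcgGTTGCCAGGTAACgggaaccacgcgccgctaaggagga

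The stretch of Bbs7 lies at chr3:36613478-36613535 on the minus strand and that of Mks1 at chr11:87853166-87853214 on the plus strand. The stretch of Tctn3 lies at chr19:40612334-40612396 on the minus strand. Measured from the RefSeq start sites, the motifs of Bbs7, Mks1 and Tctn3 began 121, 24 and 140 bases upstream. GENCODE M21 places the starts of Bbs7 and Tctn3 elsewhere: there the motifs of Bbs7, Mks1 and Tctn3 began 33, 24 and 138 bases before the gene. The stretch of Bbs7 ends where the GENCODE gene begins. All 3 motifs shown open with the same half-site, GTTGCC. That half-site on its own, which overlaps the paired motif, was in 9 of 35 members (25.7%) and in 11.8% of genes. A more degenerate form of the X-box was in 3 of 35 members (8.57%), Ift57, Tctn2 and Tctn3, and in 1.49% of genes. The loosest form was in 17 of 35 members (48.6%) and in 38.5% of genes. Both the members that match and the contrast with all genes thus moved with the form searched. The 4 genes with the paired motif went both ways between the libraries, with log2 ratios of -0.42 (Bbs7), -0.24 (Mks1), 0.06 (Ift57) and 0.29 (Tctn3).

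As a group, the cilium genes differed little between the libraries. Reads were scaled to CPM with TMM factors, and 0.5 CPM was added to both libraries before the log2 ratio (knockdown over control) was formed. A gene was called measured at a mean of at least 5 CPM, which 40 of 41 members reached. The exception was the chaperonin-like gene Bbs10, with 70 and 63 reads. None of the 40 was 2-fold higher and none 2-fold lower, beside 2.13% of 12140 measured genes that were higher and 4.51% that were lower. At 1.5-fold, 0 members were higher and 5 (12.5%) were lower, beside 9.13% and 12.4% of measured genes, so the share of lower members was near the background. The median log2 ratio of members was -0.03, with 19 above 0 and 21 below, and that of all measured genes was 0.03, with 53.1% of them above 0. Members ranged from -0.79 (Ift74) to 0.48 (Ttc21b). The interquartile range of all measured genes lay between -0.30 and 0.32, and 27 of the 40 members lay inside it, with 9 below and 4 above. The counting interval lay below 0 for 14 of the 40 members, above 0 for 8 and spanned 0 for 18. Of all 12140 measured genes, it lay below 0 for 3993, above 0 for 4792 and spanned 0 for 3355. Interval counts of the role groups below are read beside these. Whether an interval lies beyond 0 is given for the TMM scaling, and this changes for some members with library totals. Summed over all 41 members, the level was 1163 and 1117 CPM, 96.0% of the control. In the authors' deposited table, whose p-values compare the same 2 libraries with no measured spread behind them, 0 of 41 members had a p-value below 0.05. The smallest was 0.229, for Ift74, and 1231 of 15643 listed genes (7.87%) passed the authors' own rule, a p-value below 0.05 with a log2 fold change beyond 1 in either direction.

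**Figure D1:**
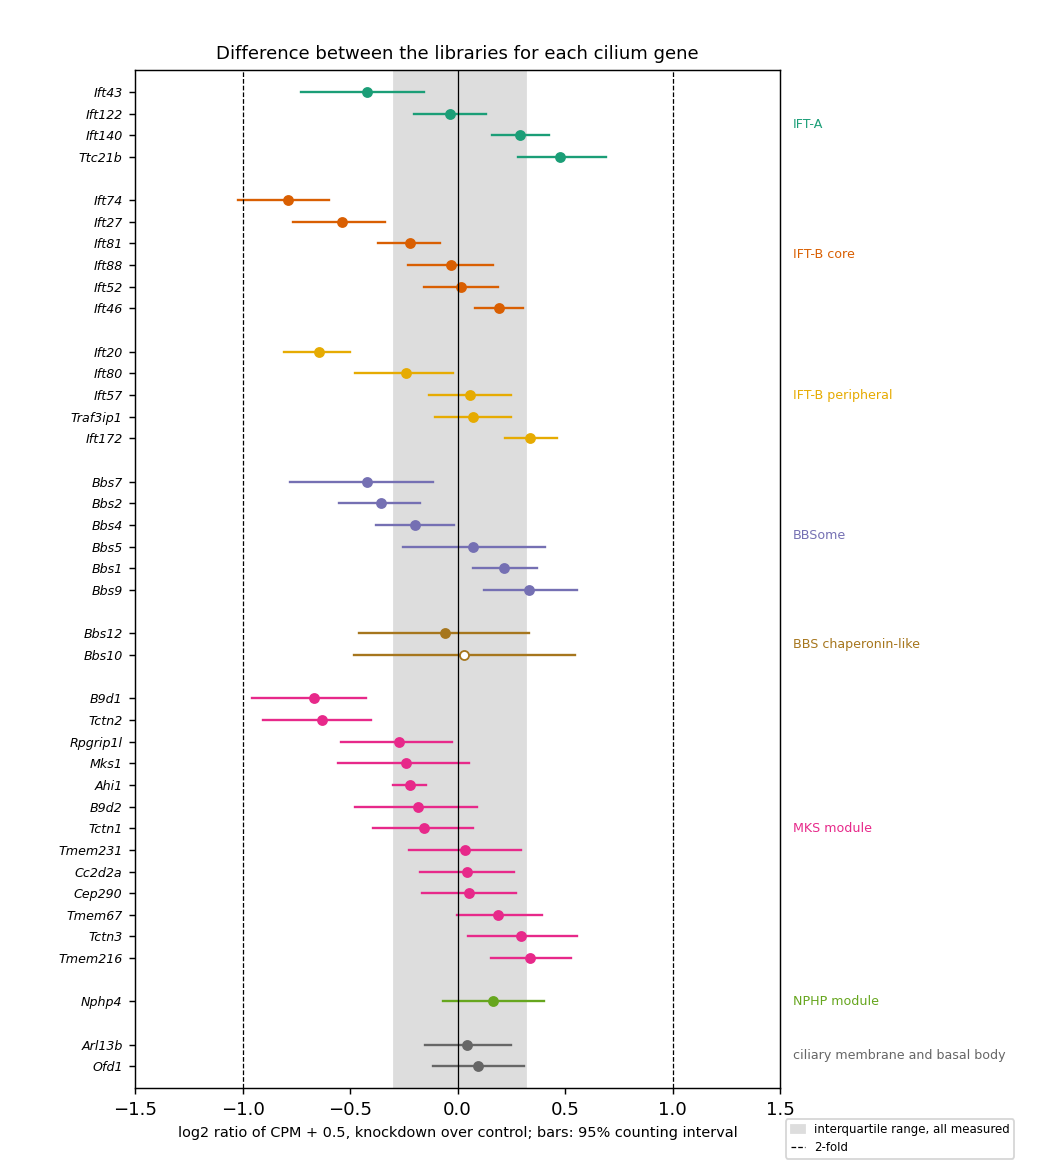
Log2 ratio of knockdown over control (x axis) for 39 cilium genes (y axis, grouped by role), with 95% counting intervals as bars, the interquartile range of all measured genes in grey and 2-fold as dashed lines. The open point is Bbs10, which is under the minimum level. All points lie between -0.79 and 0.48, inside the 2-fold lines.

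Levels per length were compared as RPKM (reads divided by gene length and by library size) from the authors' deposited table, which carries no TMM factor, so a ratio of RPKM values is slightly lower than the ratio of CPM values. In the control library the members ran from 35.6 RPKM for Ift20 to 1.43 RPKM for Bbs10, a 24.9-fold range with a median of 5.06 RPKM, below the 7.25 RPKM median of all listed genes. In the knockdown library they ran from 28.1 RPKM for Ahi1 to 1.31 RPKM for Rpgrip1l, with a median of 4.81 RPKM beside 6.76 RPKM for all listed genes. The order of levels was close in both libraries (Spearman rho 0.97 across the 41 genes, which share the same libraries and are not independent). Neighbours in that order were mostly not separated: the counting intervals of 35 of 40 neighbouring pairs overlapped in the control library and those of 38 in the knockdown library. Ift20, Ahi1 and Ift27 were the 3 highest in both libraries. Their levels were 35.6, 35.4 and 26.8 RPKM in the control library, against 21.0, 28.1 and 17.01 RPKM under knockdown, so Ift20 and Ahi1 were level in the first and Ahi1 was above Ift20 in the second.

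**Figure D2:**
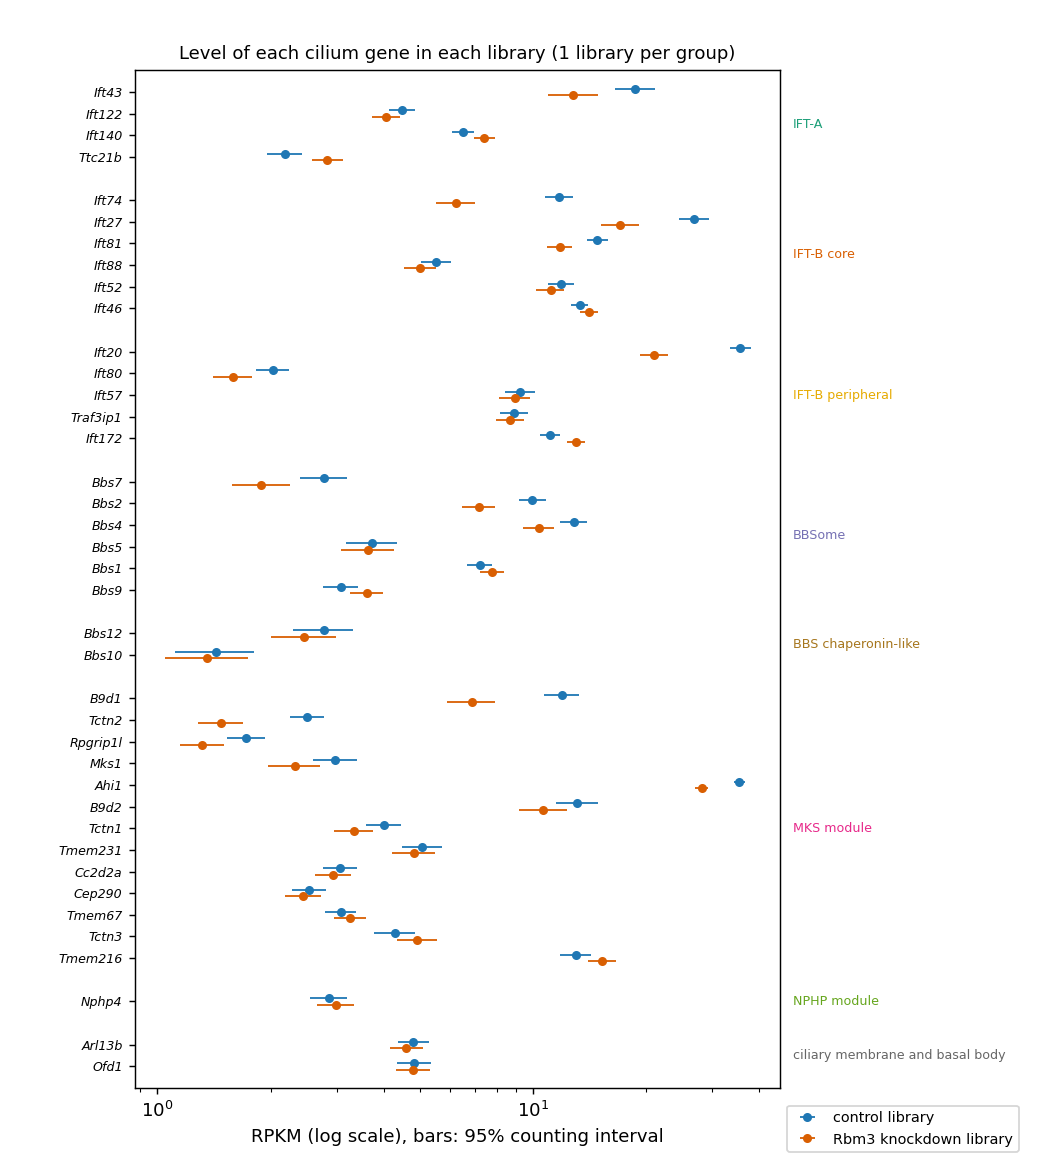
Level of each of 39 cilium genes in RPKM (x axis, log scale) in the control (blue) and knockdown (orange) library, by role (y axis), with 95% counting intervals. The levels span 1.31 to 35.6 RPKM, and the genes keep nearly the same order in both libraries.

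The 4 IFT-A genes among the members went both ways. Ttc21b (ENSMUSG00000034848.11, chromosome 2, 66184327 to 66256617, minus strand, GRCm38), which encodes the peripheral subunit IFT139, had 360 and 443 reads (2.18 and 2.83 RPKM). This was 140% of the control level in CPM (122% to 161%), the highest ratio of any member. Ift140, a core subunit, had 878 and 945 reads (6.52 and 7.41 RPKM), 122% of the control (112% to 134%). Ift122, another core subunit, had 634 and 544 reads and was level, at 97.6% (86.9% to 109.7%). Ift43, the smallest subunit, had 258 and 167 reads (18.7 and 12.8 RPKM) and was the 1 of the 4 whose interval lay below the control, at 73.7% (60.3% to 89.8%). It is also the shortest member, and a correction for gene length, described further on, took its log2 ratio from -0.42 to -0.10, which ends this call. The median log2 ratio of the 4 was 0.13.

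Of the 6 IFT-B core members, 3 had intervals below the control level, 1 above it and 2 spanning it, with a median log2 ratio of -0.13. Ift74 (ENSMUSG00000028576.6, chromosome 4, 94614491 to 94693229, plus strand, GRCm38) was the lowest of all members. It had 554 and 278 reads (11.7 and 6.21 RPKM), 57.1% of the control (49.3% to 66.1%). IFT74 pairs with IFT81 to bind tubulin, the building block that the trains carry to the tip. Ift81 had 910 and 684 reads (14.8 and 11.8 RPKM), at 85.5% (77.3% to 94.6%), and so was also lower in the knockdown library, but by less. Ift27, a small GTPase that links the trains to the BBSome, had 483 and 290 reads (26.8 and 17.01 RPKM), 68.3% of the control (58.9% to 79.2%). Ift88, the gene of the Oak Ridge polycystic kidney mouse, had 454 and 390 reads, at 97.8% (85.2% to 112%). Ift52, a core scaffold subunit, had 591 and 525 reads and stood at 101% (89.7% to 114%). Both were level between the libraries within counting error. Ift46, which has a role in the import of dynein arms in Chlamydomonas, had 1338 and 1344 reads (13.3 and 14.1 RPKM) and was the 1 higher, at 114% (106% to 123%). Rabl5, the gene now called Ift22, had 545 and 446 reads and a log2 ratio of -0.10.

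The 5 peripheral IFT-B members also spread in both directions. Ift20 (ENSMUSG00000001105.9, chromosome 11, 78536361 to 78541737, plus strand, GRCm38), whose product also works at the Golgi in sorting ciliary membrane proteins, had 966 and 540 reads (35.6 and 21.0 RPKM). It stood at 63.6% of the control (57.1% to 70.8%), the lowest of these 5. Ift80 had 377 and 279 reads (2.03 and 1.58 RPKM), at 84.2% (71.9% to 98.6%), and was also lower. Ift57 had 470 and 430 reads and was level at 104% (91.1% to 119%). Traf3ip1, which encodes the microtubule-binding subunit IFT54, had 554 and 512 reads and was level too, at 105% (93.1% to 119%). Ift172, which encodes the largest IFT-B subunit and acts in turning the trains around at the tip in Chlamydomonas, had 1065 and 1185 reads (11.1 and 13.01 RPKM). It was higher in the knockdown library, at 127% of the control (116% to 138%).

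Of the 6 BBSome subunits in the membership, 3 were below the control level and 3 above, with a median log2 ratio of -0.06. The subunit genes Ttc8 and Bbip1, which the name rule does not take, were both below it, at -0.32 and -0.52. Bbs7 had 195 and 126 reads, Bbs2 had 565 and 386 and Bbs4 had 579 and 443. These 3 were at 73.5% (58.3% to 92.5%), 77.7% (68.1% to 88.6%) and 87.1% (76.8% to 98.7%) of the control. BBS2 and BBS7 are neighbours in the assembled complex, and their genes stood side by side at the low end. Bbs5, whose product binds membrane lipids, had 162 and 150 reads, at 105% (83.8% to 132%). Bbs1, the subunit that meets the GTPase ARL6 at the membrane, had 715 and 732 reads (7.20 and 7.79 RPKM), at 117% (105% to 129%). Bbs9 had 341 and 379 reads (3.07 and 3.60 RPKM), at 126% (109% to 147%). With the TMM scaling, these last 2 were higher in the knockdown library beyond counting error, but with library totals the interval of Bbs1 spans 0. Of the chaperonin-like genes that help the BBSome assemble, Bbs12 had 120 and 101 reads and a log2 ratio of -0.06, and Bbs10 a ratio of 0.03, both with intervals that spanned 0.

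The largest group was the MKS module of the transition zone, with 13 genes, a median log2 ratio of -0.16 and 4 intervals below 0, 2 above and 7 spanning it. Ahi1 (ENSMUSG00000019986.10, chromosome 10, 20952547 to 21080429, plus strand, GRCm38), which encodes jouberin, was the most deeply read member. It had 3204 and 2413 reads (35.4 and 28.1 RPKM), 85.7% of the control (81.3% to 90.4%). Its level per length was far above the rest of the module, the next being B9d2 at 13.1 and 10.6 RPKM and Tmem216 at 12.97 and 15.3 RPKM.

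The B9 domain genes Mks1, B9d1 and B9d2 encode a complex of the gate. B9d1 had 338 and 184 reads (11.9 and 6.86 RPKM), 61.9% of the control (51.5% to 74.4%), the lowest of the module. B9d2 had 238 and 183 reads and Mks1 had 214 and 158. They stood at 87.5% (71.8% to 107%) and 84.0% (68.0% to 104%) and did not differ beyond counting error. All 3 were on the low side of 0, except that B9d2 was at 0.13 after the correction for gene length.

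The tectonic genes, which encode secreted or membrane proteins of the gate, spread in both directions. Tctn2 had 370 and 207 reads (2.50 and 1.48 RPKM), 63.7% of the control (53.4% to 75.7%). Tctn1 had 346 and 272 reads, at 89.5% (76.0% to 105%). Tctn3 had 250 and 271 reads (4.30 and 4.92 RPKM), at 123% (103% to 147%). With the TMM scaling, 1 was thus lower, 1 level and 1 higher in the knockdown library. With library totals the log2 ratios were -0.74 (Tctn2), -0.26 (Tctn1) and 0.19 (Tctn3), against -0.63, -0.16 and 0.29. That shift takes the interval of Tctn1 below 0 and makes that of Tctn3 span it.

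The transmembrane and scaffold genes of the module were mostly level. Tmem216 had 456 and 508 reads and was the 1 of the 3 transmembrane genes whose interval lay above the control, at 127% (111% to 144%). Tmem67, which encodes meckelin, had 423 and 425 reads, at 114% (99.7% to 131%), and Tmem231 had 260 and 234, at 102% (85.5% to 123%). The scaffold genes Cc2d2a (370 and 335 reads) and Cep290 (361 and 329 reads) had log2 ratios of 0.04 and 0.05, and both intervals spanned 0. Rpgrip1l, another scaffold, had 302 and 218 reads (1.72 and 1.31 RPKM), at 82.1% (68.7% to 98.1%). It was the only scaffold of the 3 with an interval below the control.

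Nphp4, a nephrocystin gene of the transition zone, had 308 and 304 reads, at 112% of the control level (95.5% to 132%), and was level within counting error.

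The remaining members mark the membrane and the base. Arl13b, a small GTPase of the ciliary membrane and the common antibody marker of the cilium, had 434 and 394 reads (4.80 and 4.60 RPKM), 103% of the control (89.9% to 119%). Ofd1, a protein of the distal centriole, had 382 and 359 reads (4.82 and 4.79 RPKM), 107% (92.3% to 124%). Both were level within counting error. Ofd1 is on the X chromosome, and the libraries differed in sex-linked RNA. Xist, the RNA of the inactive X, had 5246 and 24642 reads, and the Y-linked genes Eif2s3y, Ddx3y, Kdm5d and Uty had 1104, 664, 467 and 323 reads in the control library but 0 in the knockdown library. The part of these differences in the ratio of Ofd1, or of any other member, was not tested.

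Subunits of the same complex were then compared with each other, since the ratio of 2 genes within a library does not depend on scaling. The 17 pairs come from textbook knowledge of the complexes and were listed after the values were seen. Some genes are in more than 1 pair, and the intervals are not adjusted for the number of pairs. The difference between the log2 ratios of both partners excluded 0 in 12 pairs and included it in 5. Pairs of unrelated genes were not compared, so this count has no background share. Among single genes, intervals beyond 0 were common: of 12140 measured genes, 3993 lay below 0 and 4792 above. The count is thus not read as a trait of complex partners. The ratios between partners are free of scaling but not of gene length. With both partners corrected for length, an alternative chosen after the data were seen, 11 of 17 intervals excluded 0. Of these, 10 were among the 12. The pairs Bbs1 with Bbs4 (0.42 to 0.23) and Mks1 with B9d1 (0.44 to 0.19) then included 0, and Tmem67 with Tmem216 (-0.15 to -0.45) then excluded it. The widest was that of Tctn2 against Tctn3, with Tctn2 lower by a log2 difference of -0.95 (-1.31 to -0.59). The level of Tctn2 was 0.582 times that of Tctn3 in RPKM in the control library but 0.301 times under knockdown. Ift43 was lower than Ttc21b by -0.93 (-1.28 to -0.57), and by -0.47 (-0.83 to -0.12) after the length correction, the genes being 775 and 9282 bases long.

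Some partners of the IFT-B complex also had intervals that excluded 0. Ift20 was lower than its direct partner Traf3ip1 by -0.73 (-0.96 to -0.49), its level in RPKM being 3.997 times that of Traf3ip1 in the control but 2.42 times under knockdown. Ift74 was lower than Ift81 by -0.58 (-0.84 to -0.33). Ift57 was higher than Cluap1, which encodes its partner IFT38, by 0.73 (0.45 to 1.01). Among the 5 pairs whose interval included 0, Ift88 and Ift52 differed by -0.05 (-0.31 to 0.22), Bbs2 and Bbs7 by 0.08 (-0.30 to 0.47), and Tmem231 and Cc2d2a by -0.01 (-0.35 to 0.33). These bounds still allow a difference of up to 0.47 on the log2 scale for the BBSome pair. Without replicates it is not known how far such ratios vary between libraries of 1 group.

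**Figure D3:**
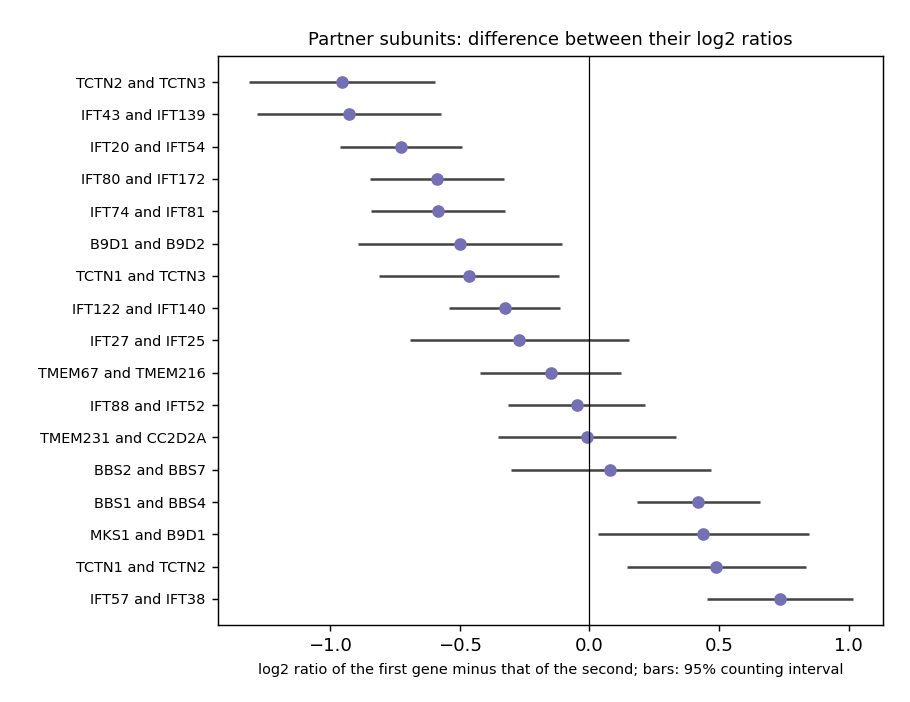
Difference between the log2 ratios of partner subunits (x axis, first gene minus second) for 17 pairs (y axis), with 95% counting intervals. The differences run from -0.95 for TCTN2 and TCTN3 to 0.73 for IFT57 and IFT38, and 12 of 17 intervals exclude 0, before any correction for length.

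Gene length moved with the ratios. The lengths behind the RPKM values ran from 775 bases (Ift43) to 10458 bases (Ift80), with a median of 4044. All 3 members under 1500 bases, Ift43, Ift27 and B9d2, had ratios below 0, with a median of -0.42. Of the 10 shortest measured members, those of up to 2656 bases, 8 were below 0 and 2 above, with a median of -0.31. Of the 10 longest, 5 were below and 5 above. Spearman's rho between length and log2 ratio was 0.35 over the 40 measured members and 0.25 over all 12140 measured genes. Both are descriptions across genes of the same 2 libraries. Among all measured genes, those under 1500 bases had a median log2 ratio of -0.25 and those of 5000 bases or more one of 0.17. After a lowess correction for length, the log2 ratio of Ift43 was -0.10, that of Ift27 -0.22, that of Ift20 -0.39 and that of B9d1 -0.42, and B9d2 went from -0.18 to 0.13. Tctn2 (8317 bases) went from -0.63 to -0.75 and was the lowest after it, followed by Ift74 (2656 bases), the lowest before it, at -0.67. How much of each ratio belongs to length was not tested.

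**Figure D4:**
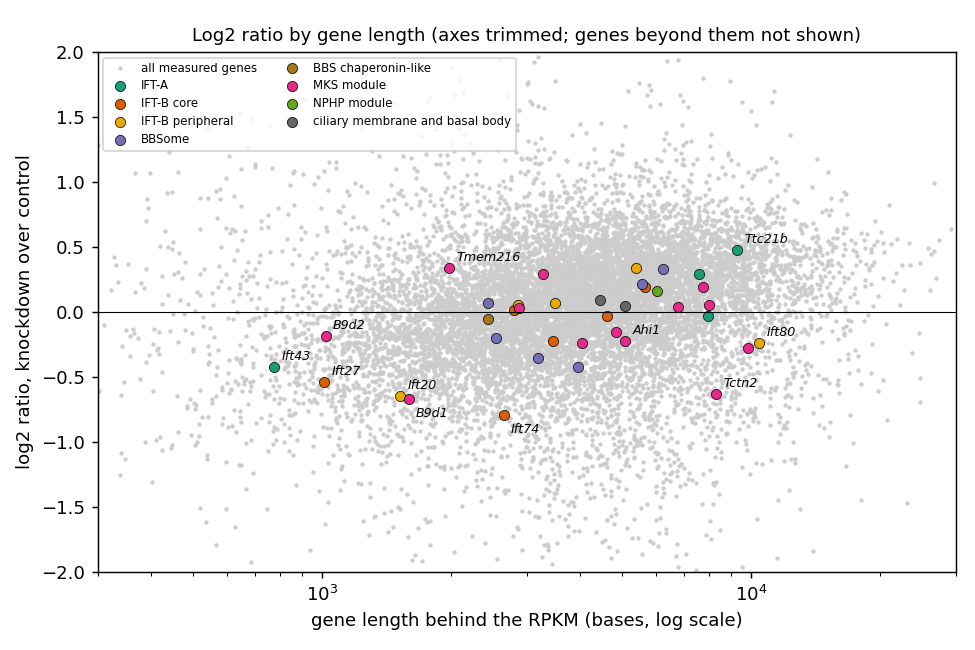
Log2 ratio of knockdown over control (y axis) against gene length in bases (x axis, log scale) for 38 measured cilium genes, coloured by role, and for all measured genes in grey. The shortest members, Ift43 at 775 bases and Ift27 at 1012 bases, lie below 0, while Tctn2 is low at 8317 bases and Ttc21b is the highest at 9282 bases.

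Another limit is shared sequence. Exons of 9 members share bases with another listed gene in GENCODE M21, in all 10 cases on the opposite strand, and the sources used here do not say whether counting used strand. Tctn1 shares 19.0% of its exonic bases, with Hvcn1 (352 and 273 reads), and the other 8 share at most 7.86% each. Ift74, Ift20, B9d1 and Tctn2, which were past 1.5-fold, share none.

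The other genes of the cilium came from 7 lists of subunits, motors, gate, membrane, centriole, disassembly and transcription factor genes. The median log2 ratios of these lists lay between -0.29 (subunits) and 0.18 (disassembly). Of 72 measured genes outside the membership, none was past 2-fold in either direction, 3 were 1.5-fold higher and 7 were 1.5-fold lower. Of all measured genes, 2.13% were 2-fold higher and 4.51% 2-fold lower, and 9.13% and 12.4% were past 1.5-fold. The median log2 ratio of the 72 genes was 0.02. Within them, 11 of 12 remaining IFT and BBS subunit genes were below 0 and 1 was above, and 46.9% of all measured genes were below 0. The median of the 12 was -0.29, or -0.22 after the length correction. The lowest was Arl6, the GTPase that recruits the BBSome to membranes, with 424 and 194 reads and a log2 ratio of -0.91. Cluap1 had 569 and 313 reads (-0.66) and Bbip1, the smallest BBSome subunit, 843 and 515 (-0.52). Mkks, a chaperonin-like gene, was the 1 above 0, at 0.08. In this list 6 of 12 intervals lay below 0 and 0 above, beside 3993 and 4792 of all 12140 measured genes.

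Motor genes went both ways. Of 9 measured, 5 were below 0 and 4 above, with a median of -0.11. The dynein light and light intermediate chain genes Tctex1d2 (276 and 130 reads) and Dync2li1 (286 and 146 reads) had log2 ratios of -0.86 and -0.75. The heavy chain gene Dync2h1, the motor of the return journey, had 697 and 695 reads and a ratio of 0.18. Kif3a and Kif3b, the kinesin that drives the trains outward, had ratios of 0.06 and 0.16, and the most abundant motor gene, Kif3c, one of 0.41. The 11 other measured transition zone and inversin genes had a median of -0.06, with Tmem107 the lowest (159 and 77 reads, -0.80) and Anks6 the highest (0.36). The 12 membrane traffic and signalling genes had a median of 0.10, from -0.38 for Arl3, a GTPase that unloads lipid-bound cargo in the cilium, to 0.58 for Gpr161, a receptor that restrains Hedgehog signalling from the cilium.

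Genes of motile cilia, which beat on multiciliated cells such as those of the choroid plexus and ependyma, were mostly under the CPM minimum. Of 34 on the list, 30 were in the table and 7 were measured, all 7 below 0, with a median of -0.43 and 1 past 2-fold lower. Among all measured genes, 46.9% were below 0 and 4.51% were 2-fold lower. The summed level of the 30, most of them under the minimum, was 179 and 95.4 CPM, 53.4% of the control. The 41 primary cilium genes were at 96.0%. Foxj1, the master factor of motile cilia, had 318 and 173 reads, and Pifo and Rsph4a, with 43 and 29 reads in the control, were at 0 in the knockdown library. Multiciliated cells also use the transport and gate genes described above. The choroid plexus markers were at 3.26% of the control level beside this, or 22.6% without Ttr, and the part of such cells in the ratios of single members was not tested.

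**Figure D5:**
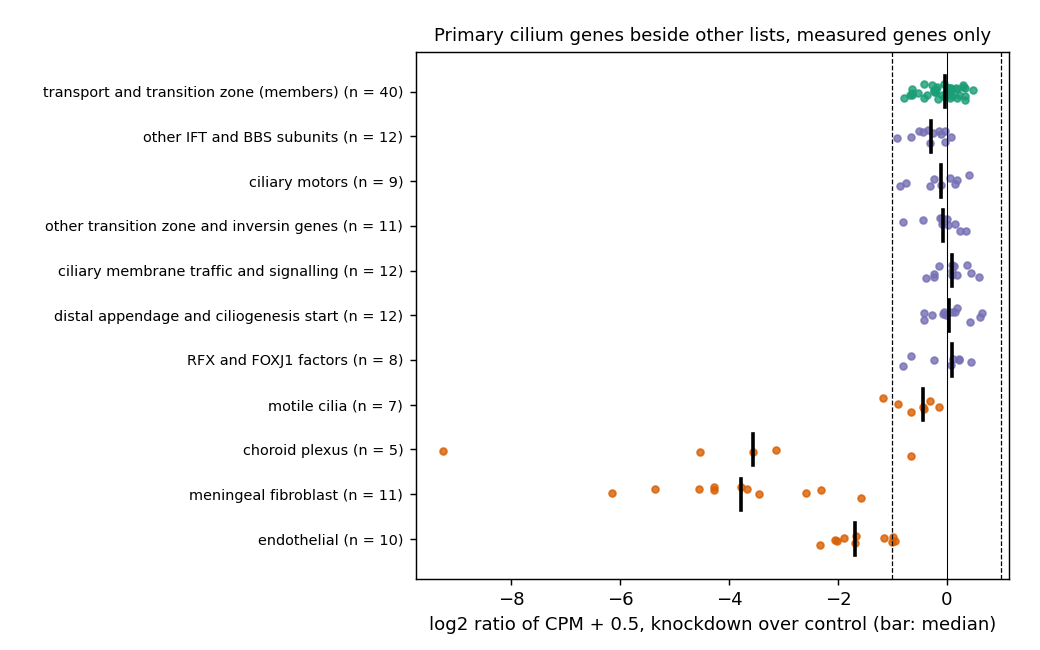
Log2 ratio of knockdown over control (x axis) for measured genes of the lists shown (y axis), one point per gene, with the median as a bar and 2-fold as dashed lines. Not shown are the radial glia (median -0.58), intermediate progenitor (0.71), neuron (0.49), G2 and M phase (0.38), Hedgehog (0.40) and ciliary disassembly (0.18) lists. The 40 primary cilium members centre on -0.03, the 7 motile cilia genes on -0.43, and choroid plexus and meningeal genes lie far lower, at -3.56 and -3.78.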

How the data were processed

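RNA-seq was made from GFP-positive cells of 2 groups with 1 library each. Per the labels' protocols, mRNA was enriched with oligo(dT), fragmented and primed with random hexamers. TopHat2 2.0.12, Bowtie 1.0.1 and HTSeq 0.6.0 are named in the submitters' processing notes, with no role stated; the sources used here name no genome build, annotation or strand setting. The deposited table holds raw read counts per Ensembl gene, RPKM, the log2 fold change, the log2 of average CPM, and p-values with their adjustment, per the file headers. Each gene length was a whole number of bases when RPKM was taken per 17783859 (control) or 16842010 (knockdown) reads, and this gave the lengths used here.

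From the counts, TMM factors (edgeR 4.0.16; 1.04 for the control, 0.963 for the knockdown library) gave CPM. Log2 ratios used a pseudocount of 0.5 CPM, which understates differences of genes with few reads. A mean of 5 CPM was required for a measured gene. Ratios carry 95% Clopper-Pearson intervals computed from how a gene's reads divide between libraries, without the pseudocount; levels carry exact Poisson intervals; partner differences carry exact conditional intervals of the odds ratio (scipy 1.17.1). The design allows no test. Calls by size are read beside the share of all measured genes. The calculation was tested on simulated data, where the intervals of 1 of 5 simulated sets held the true fold less often than their nominal level. Positions and shared exons come from GENCODE M21 (GRCm38), where all 41 member IDs were found; 17 of the 41 lengths equal its exon length and 24 are shorter, so the annotations differ. Of 40 member promoter windows, 35 have their first transcribed bases in a GENCODE transcript of the gene. List genes absent by name were looked up by gene ID. All members may be named; of other lists, members past 2-fold and the most abundant, and genes named beyond these were chosen after their values were seen. Of 4 forms of the X-box searched, the one the text leads with was chosen after their counts were seen. Counts and medians cover all members, but 2 members are not reported here one by one. The members and lists were chosen with earlier results of these data known. Alternatives were 3 other scalings, 2 pseudocounts, 3 CPM minimums, the authors' log2 fold change, a length correction (lowess, span 0.3), 1.5-fold, and, chosen after the data were seen, leaving out short members or members with shared exons.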

Additional observations from a re-analysis of the deposited data

How the results depend on the processing

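No member passed 2-fold under any of the 3 other scalings, 2 pseudocounts, 3 CPM minimums, the authors' deposited log2 fold change or the length correction; at 1.5-fold, 5 were lower. The member median ranged from -0.14 (library totals) to 0.05 (a minimum of 20 CPM), against -0.03 as reported. Library totals moved the median of all measured genes from 0.03 to -0.07, and with them the medians were 0.021 for IFT-A, -0.23 for the IFT-B core, -0.049 for peripheral IFT-B, -0.17 for the BBSome, -0.16 for the 1 measured chaperonin-like gene, -0.26 for the MKS module, -0.19 for the nephrocystin genes and -0.036 for the membrane and basal body genes. The length correction put the BBSome at 0.046 and the chaperonin-like gene at 0.082. The shift with library totals follows from leaving out the TMM factors (1.04 and 0.963), which lowers all log2 ratios by nearly the same amount. The causes of the shifts under the length correction were not tested. Without the 10 shortest members the median was 0.04, and without members that share exonic bases -0.09. With a minimum of 20 CPM the IFT-A median was 0.29 and the MKS module median 0.12, the latter against -0.16, since fewer genes were left. Of 287 single-member values under alternatives, 280 stayed within the counting interval and 7 did not: 5 under the length correction (Ift43, Ift27, Ift20, B9d1 and B9d2, given above) and Ahi1 with library totals (-0.33) and upper-quartile factors (-0.32). A value that stays within the interval can still change on which side of 0 the interval lies. With library totals the intervals of Bbs1, Ift46 and Tctn3 span 0, and those of Tctn1, Mks1 and B9d2 lie below it. Moved by the length correction, the interval of Bbs4 spans 0. No paired analysis was possible because each group has 1 library. Leaving out a replicate was not possible either. With 63 to 3204 reads a gene, counting error is small for Ahi1 and wide for Bbs10, whose interval runs from 71.7% to 146% of the control.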

Other observations

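The X-box is bound by RFX factors, and their own genes went both ways. Rfx7, the most abundant, had 1826 (control) and 1870 (knockdown) reads, a log2 ratio of 0.22, and Rfx3, which drives ciliary genes in the mouse brain, had 1117 and 1153 (0.23). Rfx4, which is needed for dorsal brain patterning in the mouse, had 384 and 190 reads and the lowest ratio of the measured factors, -0.80, close to Foxj1 at -0.67. Of 8 measured genes on this list, 5 were above 0 and 3 below, with a median of 0.09.

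Genes that start the cilium lay on both sides of 0, and those that dismantle it were above 0 with the scaling used, though not with library totals. Of 12 distal appendage and centriole cap genes, 6 were above 0 and 6 below, with a median of 0.04. The highest were Mphosph9 (593 and 818 reads, 0.64) and Ccp110 (1449 and 1942 reads, 0.61), whose products cap the mother centriole, together with Ttbk2 (0.42), the kinase that removes the cap. All 8 genes on the disassembly list were above 0, beside 53.1% of all measured genes, with a median of 0.18. Of their counting intervals 4 lay above 0 and 4 spanned it, and with library totals 5 of 8 genes were above 0 and 3 below. The list was led by Nek2 (329 and 440 reads, 0.59). Aurka, the kinase that triggers disassembly, had 568 and 663 reads (0.40). Several of these are also cell cycle genes, and the 16 genes of the G2 and M phase list had a median of 0.38. One gene on the disassembly list, Tcf4 (0.54), has no established role there and is the most abundant of the 8.

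Hedgehog genes, the pathway that runs through the cilium, had a median of 0.40 over 10 measured genes. Gli1, a direct target of the pathway, stood apart with 150 and 77 reads (-0.72), while Ptch1, another target, had 546 and 592 (0.30) and Gli2 476 and 734 (0.80).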
